A study of Mus musculus with 15 samples.

Results

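The intrinsic foot pool (IF) is the set of spinal motor neurons that supply the small muscles lying within the foot itself. It was taken here as the 3 IF libraries of 15 RNA-seq libraries made from mouse motor neurons. The 12 other libraries came, 3 each, from pools that supply muscles of the lower leg: GS (gastrocnemius), PL (peroneus longus), TA (tibialis anterior) and EDL (extensor digitorum longus). In all 5 groups the mice were wild-type and 6 days old, and each muscle had received the retrograde tracer CTB-Alexa 555, a fluorescent cholera toxin B subunit, at day 4. Traced cells were captured with a laser microscope in cord sections 12 µm thick, and a library pooled 30 to 40 cells of 2 to 5 animals with at least 250000 µm2 of captured area. The tracer marks the neurons that take it up at an injected muscle, so a pool is defined by the injection, and the foot muscles were treated as 1 target although they are several muscles. Cords in which the tracer had spread to other muscles had been discarded, per the labels. Whether an animal gave cells to more than 1 library is not stated, so the p-values below measure the spread between these pooled libraries.

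A motor pool gathers the motor neurons of 1 muscle, and the pools of the limb lie in the lateral motor column of the spinal cord, in a medial and a lateral division marked by the LIM homeodomain factors Isl1 and Lhx1. Pools are told apart during development by Hox genes, their cofactors and other transcription factors, and by guidance receptors and adhesion molecules that steer axons and group cell bodies. After birth motor neurons also differ in the ion channels that set their firing, in their neuropeptides and in the receptors through which muscle and glia support them. Retinoic acid, made by Aldh1a2 in part of the limb motor neurons, is one of the signals that divide the lateral motor column.

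Total counts per library ran from 4417114 (PL 2) to 8488368 (PL 1). The IF libraries were alike, with rank correlations of the counts of tested genes of 0.953 to 0.961 within IF against 0.657 to 0.742 within PL, the widest pool. At least 1 read was found for 17321, 16728 and 16637 genes in the IF libraries, while the other libraries had 10548 to 16429. PL 2 and PL 3 stood apart: they held 11019 and 10548 genes, and 25.7% and 29.2% of all tested genes were at 0 in them. The defining genes of motor neurons were present in IF. Chat, which makes acetylcholine, was at 84.3, 80.3 and 85.2 CPM (reads scaled to library size) in IF against 66.2 to 495 (median 154) in the 12 others, Slc5a7, the choline transporter, was at 735, 706 and 714, and Prph, the intermediate filament peripherin, was at 1716, 1458 and 1498. None of these 3 passed the test (Benjamini-Hochberg adjusted p = 0.175, 0.250 and 0.389). Markers of dorsal root sensory neurons were at or near 0 in IF: Scn10a and Tlx3 had no read and Trpv1 had 12 in the 3 IF libraries together. Of the 18 interneuron and sensory neuron markers on the list 8 were tested and none was called. Their summed level was 1621 to 1854 CPM in IF and 772 to 2628 (median 1290) elsewhere, and in IF most of it was Prph, which motor neurons also express. Pirt, Gfra3, Scn9a, Osmr and Tac1, called higher below, are also known from sensory neurons, and the part of such RNA in their calls was not tested. Levels below are CPM scaled by the trimmed mean of M-values, given for IF 1, IF 2 and IF 3 in that order or as mean ± SD of 3 libraries, and log2 fold changes are given with their standard error.

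The 4 genes named as marks of the foot pool, Crabp2, Cpne4, Vip and Pou3f1, summed to 409, 459 and 457 CPM in IF and to at most 16.7 in any other library. The sums count Pou3f1 2 times, because its 2 entries hold the same reads. Each entry was at 22.2, 22.7 and 23.0 CPM in IF. The 4 genes were chosen with results of these libraries known, so their levels describe IF and do not test its label. The contrast of the IF coefficient with the mean of the 4 other pool coefficients was tested with edgeR's quasi-likelihood F-test over 14340 genes. It called 158 genes at an adjusted p under 0.05 (1.10% of the tested genes), of which 101 were higher in IF (0.704%) and 57 lower (0.397%). All 3 IF libraries lay above the 12 others in 75 of the 101 and below them in 50 of the 57; over all tested genes, called or not, 1.88% lay above and 1.22% below. The genes higher in IF were of 2 kinds. For 60 of them at least 1 other pool had no read at all, while 41 had reads in every pool. The 57 lower genes all had reads in every pool. The filter on low counts took the pools as groups, so a gene could enter the test through its reads in IF alone. A fitted fold of a gene with a pool at 0 depends on the small count that the fit adds, so levels are given for such genes and no fold. The share of higher calls moved with the model and the libraries: it was 63.9% here, 37.8% by DESeq2 (94 higher, 155 lower), 84.9% by limma voom (236 and 42) and 49.4% without PL 2 and PL 3 (77 and 79). With a stricter filter on low counts 58 genes were higher and 52 lower. The IF libraries held the most detected genes, and the part of detection and of the filter in the excess of higher genes was not tested. The groups by role that follow were formed from the called genes, so their counts have no number tested beside them. A skew to higher or lower within them says nothing about a class of genes. Classes are described by the lists with a number tested. These lists were chosen with earlier results of these data known, so their counts and medians describe members and test no class. Each list is to be read beside all tested genes: 0.704% were called higher, 0.397% lower, and 51.2% had a fold change above 0. In RNA of pooled captured cells, a change in how many cells express a gene and a change in its RNA per cell cannot be told apart.

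**Figure D1:**
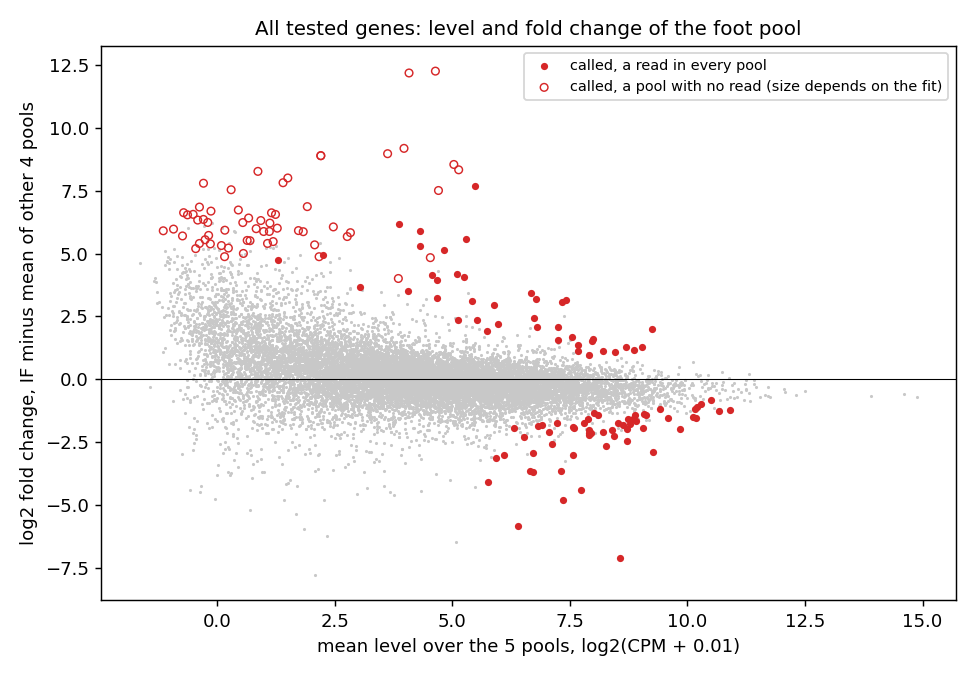
Mean level over the 5 pools (log2 of CPM plus 0.01, x axis) and log2 fold change of IF against the mean of the 4 other pools (y axis) for each of the 14340 tested genes; filled red points are called genes with reads in every pool and open points called genes with no read in 1 or more pools. The open points lie at the upper left, at low mean levels and with fold sizes that depend on the fit, while the 57 lower genes all lie at mean levels where every pool had reads.

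The transcription factors called in IF were 5 higher and 5 lower. Isl1, which marks the medial division of the column, was at 76.1, 115 and 100.4 CPM in IF and reached 94.1 in GS, with 1228 reads in the 3 GS libraries, 5 in EDL and none in TA or PL. The IF and GS libraries overlapped. Lhx1, its counterpart in the lateral division, had 22 reads in IF and none in GS and was not called (adjusted p = 0.999). Pou3f1, a POU homeodomain factor, was at 22.2, 22.7 and 23.0 CPM in IF with 6 reads elsewhere. Bnc2, the zinc finger protein basonuclin 2, was at 88.4, 63.5 and 74.4 CPM against 0 to 7.81 (median 0), and it had no read in TA or PL. Both lay above every other library by a wide margin, with adjusted p = 0.00201 and 0.00203. Hoxb8 and Grhl3, of the grainyhead family, were called at low levels. Hoxb8 was at 8.96, 9.997 and 10.9 CPM against 0 to 2.49 (median 0.175), and Grhl3 was at 4.07, 5.62 and 2.604 against 0 to 0.877 (median 0). The deposited models of Hoxb8 and Hoxb7 overlap, so their reads may be shared.

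The 5 lower factors were expressed in every pool and had their lowest mean in IF. Hoxc10, a Hox gene of the lumbar cord, was at 8.86, 15.2 and 11.7 CPM in IF against 106 to 475 (median 257) in the others, a gap that no library bridged. Sox6, a SoxD factor, was at 7.43, 4.499 and 8.68 against 11.3 to 492 (median 93.7), and the nearest pool was GS at 19.5 ± 8.51. Meis2, a Hox cofactor, was at 3.36, 11.7 and 8.68 against 11.2 to 236 (median 129), again nearest to GS at 25.6 ± 15.03, with which it overlapped. For Sox6 and Meis2 the 2 pools in which Isl1 was abundant were thus the 2 lowest in mean, with IF below GS. Nfia, nuclear factor I A, was at 585, 476 and 572 against 751 to 2172 (median 1321) (log2 fold change -1.19 ± 0.24, adjusted p = 0.0173). Zbtb7a, a zinc finger repressor, was at 25.05, 17.2 and 24.3 against 36.1 to 215 (median 82.8) (log2 fold change -1.93 ± 0.45, adjusted p = 0.0414). Of 28 Hox genes tested, Hoxb8 was called higher and Hoxc10 lower, 15 lay above the mean of the other pools and 13 below. Hoxd10 was at 86.7, 92.6 and 91.6 CPM in IF, above all 12 others at 1.92 to 59.6 (median 32.6), but missed the threshold (adjusted p = 0.390). Hoxd11 was at 47.9, 44.1 and 45.1 against 0.176 to 82.96 (median 2.403) (adjusted p = 0.0982), and Hoxc11 had 17 reads in IF and 57 elsewhere (adjusted p = 0.736). Foxp1, a factor of limb motor neurons, was at 187, 189 and 221 CPM in IF, with its lowest pool mean in EDL at 16.2, and it did not pass the test (adjusted p = 0.126). Isl2 and Mnx1, general motor neuron factors, were at 7.26 ± 1.66 and 3.71 ± 0.848 CPM in IF and did not pass either (adjusted p = 0.658 and 0.727).

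The 2 called retinoid genes went opposite ways. Crabp2, which binds retinoic acid in the cytoplasm, was at 122, 125 and 126 CPM in IF, and the 12 others held 1 read between them. Aldh1a2, which makes retinoic acid, was at 3.77, 4.37 and 1.45 CPM in IF against 177 to 906 (median 428), far below every other library. Aldh1a1, a related dehydrogenase, was at 91.4, 173 and 99.8 against 0 to 95.1 (median 7.63) and did not pass (adjusted p = 0.0867). Over the 15 retinoid genes tested, 1 was called higher and 1 lower, 6 lay above the other pools and 9 below. With 1 library left out at a time, calls were lost for Meis2 without IF 1 or IF 3 and Hoxb8 without any 1 EDL or IF library, TA 1, TA 2 or GS 1. Nfia lost its call without any 1 IF library, and Grhl3 without any 1 IF library, EDL 2, EDL 3 or GS 3. Zbtb7a lost its call without any 1 TA, EDL, GS or IF library; adjusted p was at most 0.381. Without PL 2 and PL 3, calls were lost for Hoxb8 and Grhl3 (adjusted p from 0.101 to 0.114). On mm9, as deposited, Crabp2 lies on chromosome 3, 87752588 to 87757299, Bnc2 on chromosome 4, 83918446 to 84320991, Pou3f1 on chromosome 4, 124334896 to 124337900 and Sox6 on chromosome 7, 122614858 to 123182259.

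**Figure D2:**
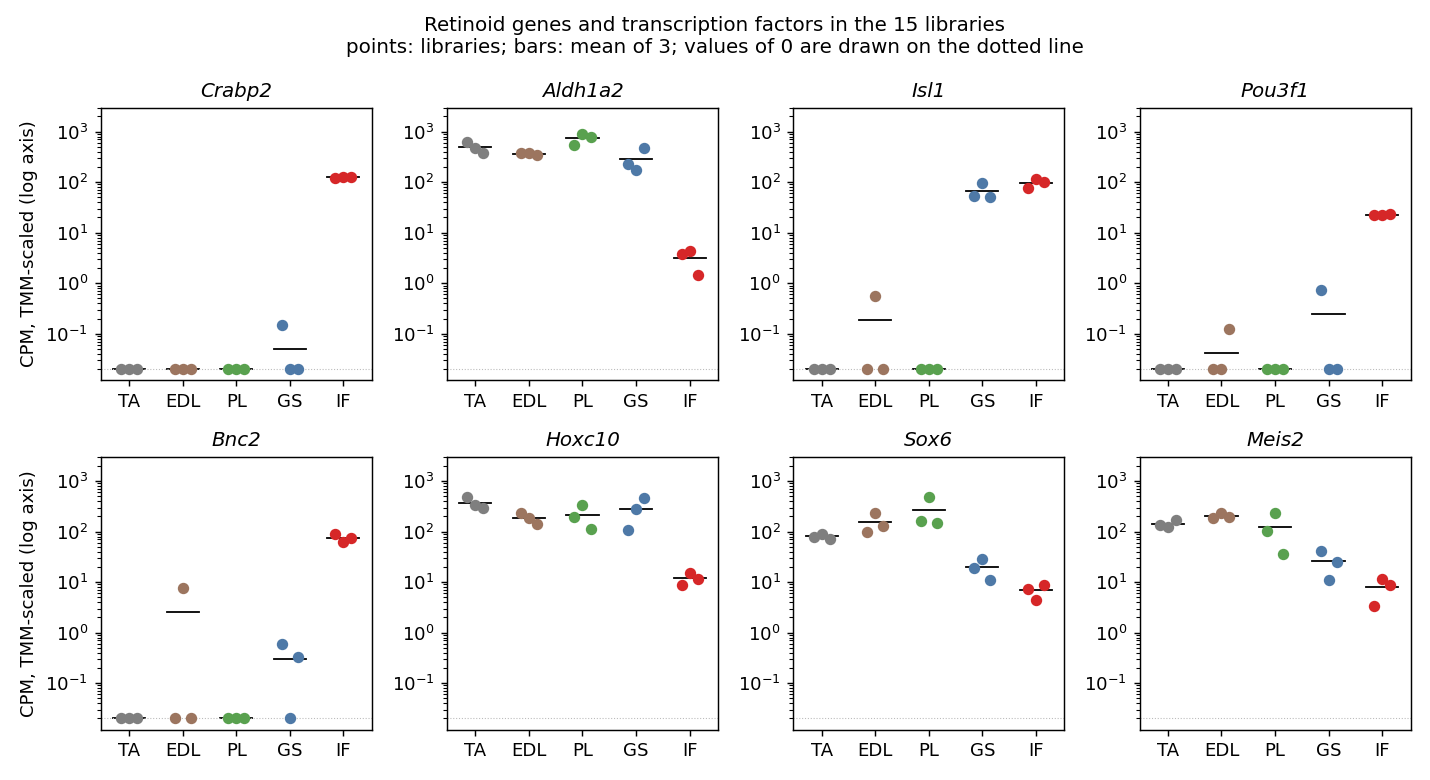
Level in CPM (log axis, scaled by the trimmed mean of M-values) of 2 retinoid genes and 6 transcription factors in the 15 libraries; points are libraries, bars the mean of 3, and values of 0 are drawn on the dotted line. Crabp2, Pou3f1 and Bnc2 were high in the 3 IF libraries and at or near 0 elsewhere, Isl1 was shared by IF and GS, and Aldh1a2, Hoxc10, Sox6 and Meis2 were lowest in IF.

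Neuropeptide precursors changed in both directions: of 21 tested, 4 were called higher and 4 lower, against 0.704% and 0.397% of all tested genes. Their median log2 fold change was 1.09, and 0.83 with pools at 0 set to 3 counts, beside 0.02 and -0.01 over all tested genes. The list was chosen with earlier results of these data known and holds Vip, so these values do not test the class. The summed level of the list was 1664 to 1915 CPM in IF, below all 12 others at 2281 to 5234. Neuropeptides are cut from precursors and stored with granins in dense-core vesicles, and motor neurons release several of them beside acetylcholine. The 4 higher were Vip, Tac1, Cartpt and Gal, and the 4 lower were Nts, Calca and the granin-type precursors Scg2 and Vgf. Promoters of 7 of the 8 were found in the RefSeq table (GRCm38.p6). The 250 bases before the start are shown for 3 higher and 3 lower precursors because genes of this class are known targets of factors that bind the cAMP response element. Capitals mark matches on either strand to the full element TGACGTCA, its part TGACG, and TGANTCA, the site of AP-1 factors; the full element contains the part on both strands.
Vip (chr10:5638968-5639217, plus strand): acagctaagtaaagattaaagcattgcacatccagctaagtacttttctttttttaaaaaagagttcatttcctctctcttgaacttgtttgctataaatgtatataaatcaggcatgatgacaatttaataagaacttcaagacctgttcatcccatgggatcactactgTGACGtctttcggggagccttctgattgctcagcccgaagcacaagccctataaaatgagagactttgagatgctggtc
Tac1 (chr6:7554811-7555060, plus strand): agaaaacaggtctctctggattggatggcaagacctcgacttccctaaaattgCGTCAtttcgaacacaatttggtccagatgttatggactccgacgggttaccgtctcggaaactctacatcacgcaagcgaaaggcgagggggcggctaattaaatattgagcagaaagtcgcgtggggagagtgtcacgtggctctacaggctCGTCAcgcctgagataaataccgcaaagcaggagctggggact
Cartpt (chr13:99900684-99900933, minus strand): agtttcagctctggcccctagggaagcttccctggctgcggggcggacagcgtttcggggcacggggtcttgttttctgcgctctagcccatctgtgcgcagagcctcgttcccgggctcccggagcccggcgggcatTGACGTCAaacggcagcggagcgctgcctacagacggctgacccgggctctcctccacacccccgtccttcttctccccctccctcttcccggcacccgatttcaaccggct
Nts (chr10:102490419-102490668, minus strand): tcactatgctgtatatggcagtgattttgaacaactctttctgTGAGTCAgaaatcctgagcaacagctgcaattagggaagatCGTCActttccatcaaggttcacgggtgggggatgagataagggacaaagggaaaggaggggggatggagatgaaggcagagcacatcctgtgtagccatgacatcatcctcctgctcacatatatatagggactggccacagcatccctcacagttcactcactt
Calca (chr7:114636358-114636607, minus strand): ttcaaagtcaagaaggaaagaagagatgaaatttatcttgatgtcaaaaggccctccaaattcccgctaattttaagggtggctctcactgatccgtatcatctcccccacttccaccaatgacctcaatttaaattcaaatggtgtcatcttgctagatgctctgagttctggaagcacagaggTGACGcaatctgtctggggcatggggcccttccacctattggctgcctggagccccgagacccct
Scg2 (chr1:79440027-79440276, minus strand): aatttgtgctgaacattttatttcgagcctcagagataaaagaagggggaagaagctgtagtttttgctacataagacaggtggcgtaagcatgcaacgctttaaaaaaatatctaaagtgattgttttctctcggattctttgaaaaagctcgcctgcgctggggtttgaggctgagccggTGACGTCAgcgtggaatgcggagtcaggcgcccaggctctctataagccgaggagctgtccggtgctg
The full element was present in Cartpt, starting 112 bases before the start, and in Scg2, starting 68 bases before it. It was found in the same window of 1.55% of the 32851 promoters in the table. Vip and Calca each held 1 copy of the part, starting 79 and 65 bases before the start, Tac1 held 2 (197 and 43 bases) and Nts held 1 (166 bases), and 17.8% of all promoters held it. Nts also held the AP-1 site 207 bases before its start, as did 6.75% of all promoters somewhere in the window. The promoter of Gal, the seventh found, held none of the 3. Matches stood in higher and in lower precursors, and a match or its absence is a description of the letters.

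Vip encodes vasoactive intestinal peptide, and its IF libraries were at 47.3, 54.9 and 63.4 CPM. Elsewhere it was seen in EDL, at 1.39, 16.4 and 1.003 CPM, and with 1 read in PL, and TA and GS had none. Tac1, which encodes substance P, stood at 53.7, 82.97 and 53.1 CPM against 0 to 20.4 (median 0.236), and the highest other library was of GS. Both peptides therefore lay above all 12 other libraries, and in each the next level belonged to 1 library of 1 pool. Cartpt, the precursor of CART peptides, was at 6.21, 5.998 and 5.497 CPM with 52 reads in EDL and none in TA, and Gal, the precursor of galanin, was at 2.34, 6.998 and 5.93 CPM with 15 reads in the 12 others. These 2 were low everywhere. Scg3, a granin of vesicle sorting, was at 355, 402 and 420.3 against 123 to 336 (median 205) (log2 fold change 0.99 ± 0.23, adjusted p = 0.0467), and it was the 1 of 7 genes of peptide processing that was called.

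Nts, the precursor of neurotensin, was at 2.24, 5.12 and 4.48 CPM in IF. Its level was 36.6 ± 14.4 in GS and 32.8 ± 11.3 in TA, then 233 ± 18.2 in PL and 514 ± 74.5 in EDL, so IF was lowest, followed by TA and GS, which overlapped with each other. Calca, the precursor of calcitonin and of CGRP, was at 93.7, 116 and 78.3 against 338 to 1455 (median 608), and no IF library came near the others. Scg2, secretogranin II, was at 80.2, 119.7 and 107 in IF and 97.04 ± 35.8 in GS, which overlapped, while TA, EDL and PL had means of 408, 536 and 835. It was called lower against the mean of the 4 pools (log2 fold change -1.83 ± 0.32, adjusted p = 0.00687) while IF and GS did not separate. Vgf, a growth factor-induced precursor, was at 61.2, 52.5 and 58.4 against 143 to 516 (median 195) (log2 fold change -1.93 ± 0.37, adjusted p = 0.0128), below every other library. Leaving out single libraries ended the calls of Scg2 and Vgf without any 1 IF library and Gal without any 1 EDL, GS or IF library, TA 1, TA 3, PL 2 or PL 3. Scg3 lost its call without any 1 EDL, GS or IF library, TA 2 or TA 3, and Cartpt without any 1 TA, GS or IF library, EDL 2, EDL 3 or PL 2; adjusted p was at most 0.322. Without PL 2 and PL 3, the calls of Cartpt and Gal (adjusted p from 0.149 to 0.204) were lost.

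Of the called genes, 8 encode cytokine and growth factor receptors, ligands or a ligand binder, 6 of them higher and 2 lower. The leukemia inhibitory factor receptor Lifr and the oncostatin M receptor Osmr each pair with gp130 and pass on signals of the interleukin 6 family. Lifr was at 1471, 1268 and 1438 CPM in IF against 160.4 to 1147 (median 306), with PL nearest at 833 ± 303. Osmr was at 159.6, 187 and 141 against 0 to 30.7 (median 2.47) (adjusted p = 0.00654). TA was at 0.117 ± 0.203 with 2 reads, so no fold is given. Both receptors thus lay above all 12 other libraries, Osmr from near 0 in TA and Lifr from a level that every pool held. Gfra3, the coreceptor for artemin, was at 8.45, 14.4 and 16.2 CPM in IF and had its 22 other reads in GS. Of 27 neurotrophic factor and cytokine receptor genes tested, 4 were called higher and none lower, against 0.704% and 0.397% of all tested genes. Of the list 12 lay above the other pools and 15 below, where 51.2% of all tested genes lay above.

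Among secreted factors, Igf1, insulin-like growth factor 1, was at 201, 363 and 364 CPM in IF against 0 to 134 (median 25.6), with GS next at 121 ± 13.6 and EDL lowest at 6.299 ± 8.08 (log2 fold change 3.43 ± 0.69, adjusted p = 0.0173). Ccl7, a chemokine, was at 8.25, 8.62 and 12.4 against 0 to 5.09 (median 0). Fst, follistatin, which binds activins, was at 2.04, 12.9 and 14.5 against 0 to 2.99 (median 0), and IF 1 overlapped with the others. Fgf1 and Cx3cl1 were lower. Fgf1, a fibroblast growth factor, was at 368, 202 and 347 against 404 to 1488 (median 833) (log2 fold change -1.52 ± 0.34, adjusted p = 0.0321), and Cx3cl1, fractalkine, which signals to microglia, was at 162, 144 and 137 against 245 to 939 (median 452) (log2 fold change -1.77 ± 0.41, adjusted p = 0.0414). Microglial markers, read beside these immune ligands, summed to 40.4 to 87.6 CPM in IF and 31.8 to 254 (median 62.2) elsewhere, with PL 3 highest. Of 8 tested 0 were called, 5 lay above the other pools and 3 below. Their median log2 fold change was 0.82, beside 0.02 over all tested genes. The part of microglial RNA in the calls of this group was not tested. Calls were lost, with 1 library left out, for Gfra3, Igf1 and Ccl7 without any 1 IF library and Fgf1 without any 1 EDL or IF library, TA 2, TA 3, GS 2 or GS 3. Fst lost its call without any 1 IF library, EDL 2, EDL 3, GS 1 or GS 3, and Cx3cl1 without any 1 IF library, TA 1, EDL 2, EDL 3, GS 2 or GS 3; adjusted p was at most 0.328. The pair PL 2 and PL 3 left out ended those of Gfra3, Ccl7 and Fst (adjusted p from 0.0515 to 0.0826).

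**Figure D3:**
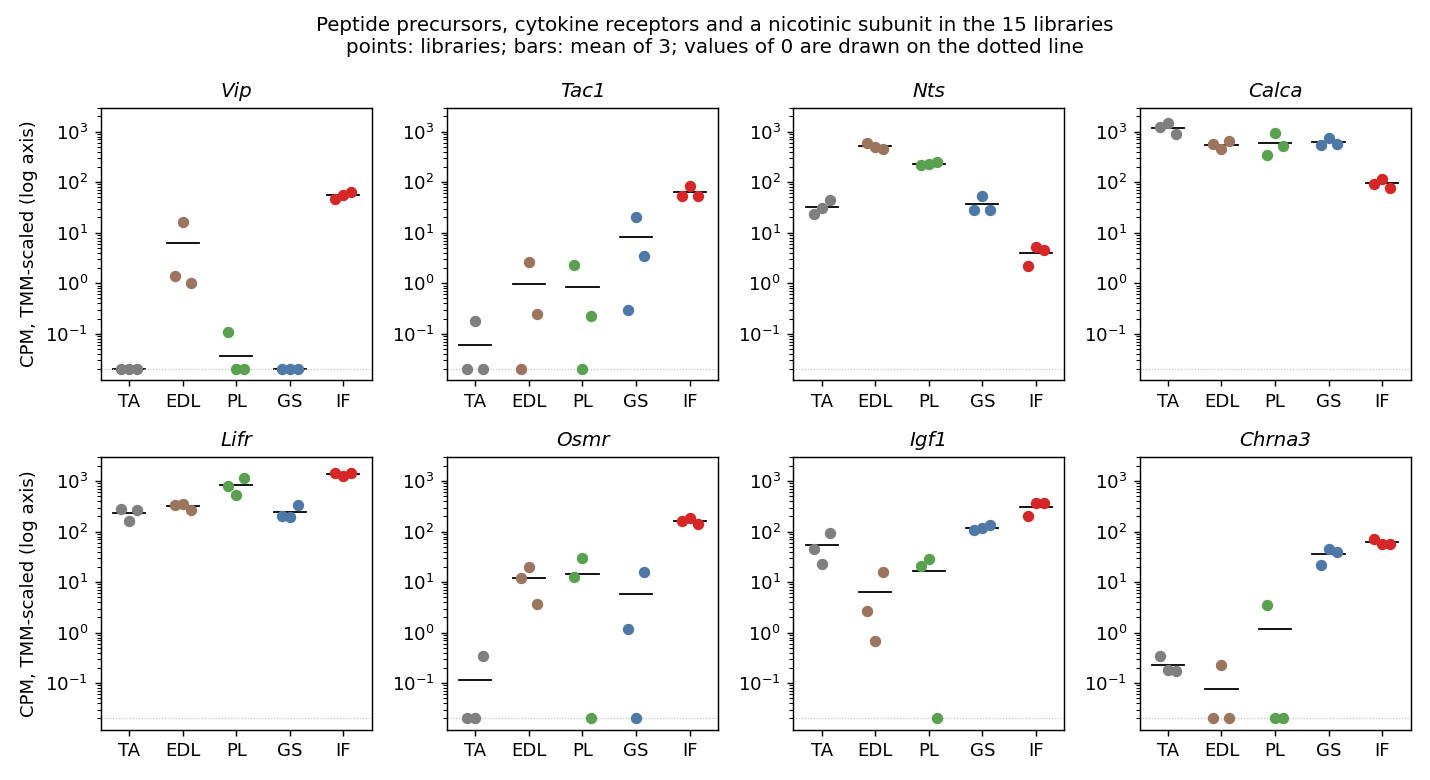
Level in CPM (log axis) of 4 peptide precursors, 2 cytokine receptors, Igf1 and Chrna3 in the 15 libraries; points are libraries, bars the mean of 3, and values of 0 are drawn on the dotted line. Vip, Tac1, Lifr, Osmr, Igf1 and Chrna3 were highest in the 3 IF libraries, and Nts and Calca lowest in them.

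G protein-coupled receptors through which peptides and amines change motor neuron firing were called in both directions, 5 higher and 2 lower. Trhr, the receptor of thyrotropin-releasing hormone, was at 274, 341 and 279.8 CPM in IF, with GS and TA at 203 ± 83.98 and 200.2 ± 119 and EDL and PL at 39.02 ± 15.3 and 14.7 ± 12.2. IF overlapped with single GS and TA libraries and lay above all of EDL and PL (log2 fold change 2.09 ± 0.39, adjusted p = 0.00941). Prokr2, a prokineticin receptor, was at 54.4, 60.98 and 52.5 CPM in IF, and PL 3 exceeded it at 141 while the 11 other libraries lay below it. Oprm1, the mu opioid receptor, was at 2.95, 5.62 and 10.6 and overlapped with EDL at 4.74 ± 2.26, and TA and GS had no read. Oprm1 overlaps Ipcef1 on the opposite strand, which had a fold change in the same direction without passing (adjusted p = 0.131), and their reads cannot be separated. Cckar, a cholecystokinin receptor, was at 2.95, 1.62 and 1.45 with 4 reads elsewhere. Adra1b, an alpha-1 adrenergic receptor that excites motor neurons, was at 3.87, 5.37 and 2.03 against 9.71 to 110.1 (median 62.5) (log2 fold change -4.08 ± 0.71, adjusted p = 0.00687). Tacr1, the receptor of substance P, was at 50.9, 41.2 and 59.3 against 79.4 to 295 (median 152) (log2 fold change -1.75 ± 0.42, adjusted p = 0.0471). Within IF the precursor of substance P was therefore called higher and its receptor lower. The 35 monoamine and peptide receptors on the list held 2 higher and 2 lower calls, with 16 genes above the other pools and 19 below. Leaving out 1 library ended the calls of Adra1b and Trhr without any 1 IF library and Oprm1 without any 1 EDL, GS or IF library. Tacr1 lost its call without any 1 EDL, GS or IF library, TA 1 or TA 3, and Prokr2 without any 1 IF library or GS 1. Cckar lost its call without any 1 library; adjusted p was at most 0.385. Those of Oprm1 and Cckar (adjusted p from 0.0700 to 0.198) were lost without PL 2 and PL 3.

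Potassium channels bring the membrane back to rest, and 7 of the 51 channel subunit and partner genes tested were lower in IF and 1 was higher, against 0.397% and 0.704% of all tested genes; 36 lay below the other pools and 15 above, and the median log2 fold change was -0.45 beside 0.02 over all genes. The summed level of the list was 3264, 3115 and 3090 CPM in IF and 4324 to 10163 in the 12 others, where PL 2 and PL 3 were the 2 highest. Without those 2 libraries 7 lower and 1 higher were called of 53. A sum below all 12 others was not particular to this list. The IF sums of the semaphorin, Hox, and monoamine and peptide receptor lists also lay below all 12 others, while those of the synaptic vesicle and the ephrin lists overlapped with them. The part of detection in these sums was not tested. Kcna1, the Kv1.1 subunit that limits repetitive firing, was at 515, 433 and 368 CPM against 761 to 2644 (median 1108) (log2 fold change -1.48 ± 0.27, adjusted p = 0.00892). Kcnc1, the Kv3.1 subunit that speeds repolarization in fast-firing neurons, was at 38.2, 32.1 and 25.2 CPM against 40.2 to 420.0 (median 143) (log2 fold change -2.11 ± 0.45, adjusted p = 0.0249). Both lay below every other library. Kcnk3, the TASK-1 leak channel, was at 94.7, 77.6 and 70.2 against 178 to 749.7 (median 290.1) (log2 fold change -2.10 ± 0.42, adjusted p = 0.0169). Kcnip1, a partner of Kv4 channels, was at 115, 125 and 101 against 196 to 395 (median 296) (log2 fold change -1.35 ± 0.27, adjusted p = 0.0188). Kcng4, a silent Kv subunit, was at 2.24, 0.125 and 2.03 against 7.12 to 356 (median 64.6), with IF 2 at 1 read. Kcnj10, the Kir4.1 channel, which glia express, was at 70.5, 78.8 and 85.8 against 107 to 439 (median 236) (log2 fold change -1.73 ± 0.39, adjusted p = 0.0367). The 1 higher member, Kcng1, another silent subunit, was at 8.25, 21.7 and 12.4 in IF but at 56.1 ± 63.4 in TA and at 0 in PL, and its difference was at -0.033 when the 12 other libraries formed 1 group.

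Other channel genes went both ways. Chrna3, a nicotinic acetylcholine receptor subunit best known from autonomic ganglia, was at 70.2, 57.7 and 57.4 CPM in IF and 35.4 ± 12.3 in GS, against at most 1.19 ± 2.06 in the other pools (adjusted p = 0.000856). EDL had 2 reads of it, so no fold is given. All 3 IF libraries lay above GS. Pirt, a membrane protein that regulates TRP channels, was at 132, 85.7 and 101 against 0 to 43.3 (median 0.336), and Trpc4, a cation channel, was at 21.4, 12.0 and 11.1 against 0 to 4.39 (median 0). GS was again the next pool for both, at 19.9 ± 20.6 and 3.75 ± 0.989. Scn9a, the sodium channel Nav1.7, was at 334, 267 and 290.3 against 34.9 to 269 (median 119.7) (log2 fold change 1.58 ± 0.31, adjusted p = 0.0153), Fgf13, which binds sodium channels, was at 485, 466 and 518 against 79.9 to 453 (median 251) (log2 fold change 1.12 ± 0.26, adjusted p = 0.0374), and Fxyd6, a regulator of the sodium pump, was at 117, 126 and 128 against 2.46 to 47.9 (median 28.4) (log2 fold change 2.37 ± 0.43, adjusted p = 0.00911). Clic6, of the chloride intracellular channel family, was at 9.37, 1.87 and 6.37 against 0 to 5.11 (median 0), and IF 2 lay below the 3 GS libraries. Lower were Glra1, the adult glycine receptor subunit, at 95.1, 71.1 and 69.01 against 152 to 1143 (median 314) (log2 fold change -2.24 ± 0.41, adjusted p = 0.00941), and the AMPA receptor regulators Cacng5 at 31.2, 21.4 and 27.6 against 137 to 724 (median 186) (log2 fold change -3.03 ± 0.46, adjusted p = 0.00203) and Cacng7 at 40.5, 29.7 and 35.6 against 78.2 to 258 (median 113) (log2 fold change -1.87 ± 0.41, adjusted p = 0.0292). Glra1 was the 1 call among 37 glutamate, GABA and glycine receptors, of which 24 lay below the other pools. Of 33 sodium, calcium and HCN channel genes 1 was called higher and 1 lower. With a library left out, calls were lost for Kcna1, Kcnc1, Kcnk3, Kcnip1, Kcng4, Scn9a, Fxyd6, Clic6 and Glra1 without any 1 IF library and Cacng7 without any 1 EDL or IF library, TA 1, TA 3, GS 2 or GS 3. Kcnj10 lost its call without any 1 EDL, GS or IF library or TA 2, and Kcng1 without any 1 GS or IF library, TA 1 or EDL 1. Fgf13 lost its call without any 1 IF library, TA 1, TA 2, EDL 1, EDL 3, GS 1 or GS 2; adjusted p was at most 0.278. None of the channel calls was lost without PL 2 and PL 3. DESeq2 kept all of them, while limma voom kept 5 of the 10 lower and 7 of the 8 higher.

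**Figure D4:**
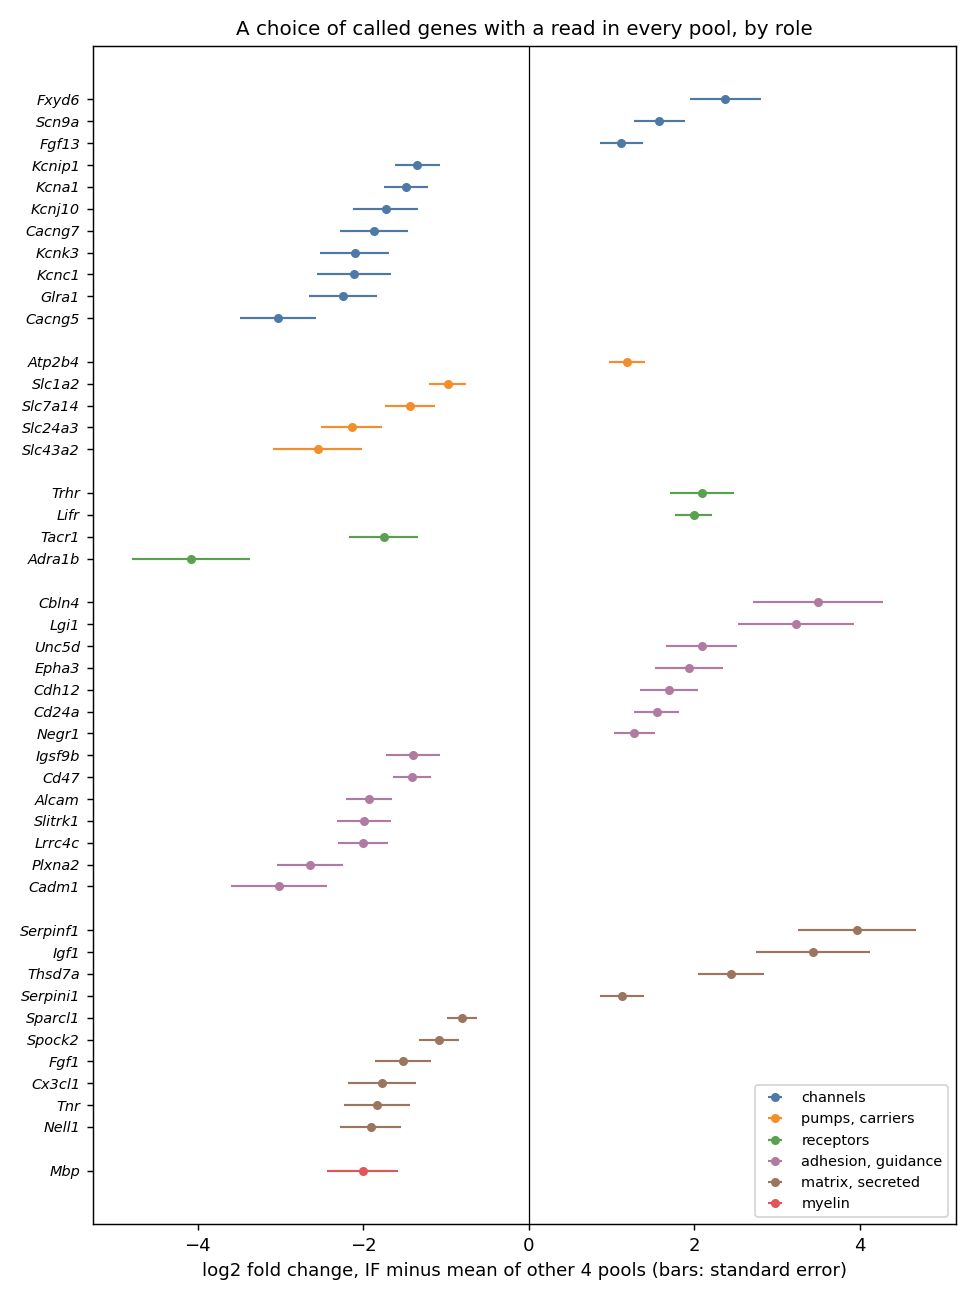
Log2 fold change of IF against the mean of the 4 other pools (x axis, bars: standard error) for a choice of called genes with reads in every pool, grouped and coloured by role. The potassium channels, Mbp and the receptor regulators Cacng5 and Cacng7 lie left of 0, and adhesion and matrix genes lie on both sides.

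Pumps and carriers were 2 higher and 4 lower. Atp2b4, a calcium pump of the plasma membrane, was at 863, 684 and 861 CPM against 168 to 567 (median 429) (log2 fold change 1.18 ± 0.22, adjusted p = 0.00941), above every other library, and Slc7a3, a carrier of cationic amino acids, was at 14.97, 20.2 and 12.4 against 0 to 6.45 (median 0). Slc24a3, which exchanges sodium for calcium and potassium, was at 51.6, 39.9 and 80.1 against 136 to 891 (median 236) (log2 fold change -2.14 ± 0.37, adjusted p = 0.00674). The amino acid carrier genes Slc43a2 and Slc7a14 were lower as well (-2.55 ± 0.53 and -1.43 ± 0.30), each below all 12 other libraries. Slc1a2, the glutamate transporter typical of astrocytes, was at 608, 633 and 803 against 758 to 2200.0 (median 1279) (log2 fold change -0.98 ± 0.22, adjusted p = 0.0378) and overlapped. Calls were lost, on leaving out a library, for Slc24a3 without IF 1 or IF 2 and Atp2b4 without IF 1 or IF 3. Slc7a3 lost its call without any 1 EDL or IF library, TA 1, TA 2, PL 2, GS 2 or GS 3, and Slc1a2 without any 1 EDL, GS or IF library, TA 1 or TA 3. Slc43a2 lost its call without any 1 IF library, and Slc7a14 without any 1 IF library, EDL 2 or EDL 3; adjusted p was at most 0.322. Without PL 2 and PL 3 the call of Slc7a3 (adjusted p = 0.109) was lost.

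Genes of calcium sensing and intracellular signalling were 5 higher and 4 lower. Cpne4, a calcium-dependent membrane binding protein, was at 196, 234 and 223 CPM against 0 to 5.199 (median 0.350), and it was the 1 called of 9 copines. Necab1, an EF-hand calcium binding protein, was at 155, 124 and 138 against 0 to 17.9 (median 6.92) (log2 fold change 4.21 ± 0.79, adjusted p = 0.0108), and its reads cannot be separated from those of an overlapping antisense model. Ppp1r1c, an inhibitor of protein phosphatase 1, was at 410.4, 578 and 506 against 0.678 to 196 (median 54.4) (log2 fold change 3.15 ± 0.58, adjusted p = 0.00941), with TA lowest at 11.5 ± 18.5. In these 3 genes IF lay above every other library. S100a11, an S100 protein, was at 22.9, 27.7 and 26.2 against 0 to 12.5 (median 1.46) (log2 fold change 3.65 ± 0.80, adjusted p = 0.0299). Camk2a, a calmodulin kinase subunit, was at 61.7, 64.2 and 55.1 in IF and 95.4 ± 59.6 in GS, against at most 6.87 in mean in the others (log2 fold change 2.35 ± 0.49, adjusted p = 0.0224), so GS overlapped and exceeded IF in mean. Lower were Rasgrf1, a calcium-sensitive activator of Ras, at 96.1, 111 and 70.3 against 296 to 993 (median 499) (log2 fold change -2.43 ± 0.37, adjusted p = 0.00203), and Cabp7, a calcium binding protein, at 69.1, 68.1 and 53.8 against 133 to 563 (median 233) (log2 fold change -2.12 ± 0.38, adjusted p = 0.00892). Dgkg, a diacylglycerol kinase, and Stk24, a protein kinase, were lower too (log2 fold changes -3.12 ± 0.68 and -2.21 ± 0.51), with IF below all other libraries. Calls in this group were lost for Necab1 and Cabp7 without any 1 IF library and Ppp1r1c without IF 2 or IF 3. S100a11 lost its call without any 1 EDL or IF library, GS 1 or GS 3, and Camk2a without any 1 IF library or GS 3. Dgkg lost its call without any 1 IF library, EDL 1, EDL 3 or GS 2, and Stk24 without any 1 TA, EDL or IF library, GS 2 or GS 3; adjusted p was at most 0.275.

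Adhesion and guidance genes were 7 higher and 7 lower. Of the higher genes, Cd24a, a small surface glycoprotein, was at 439, 582 and 469 CPM against 51.6 to 324 (median 189) (log2 fold change 1.54 ± 0.27, adjusted p = 0.00774). Epha3, an ephrin receptor, was at 119.5, 128 and 125 against 9.57 to 66.6 (median 34.2) (log2 fold change 1.93 ± 0.41, adjusted p = 0.0249). The synaptic organizers Lgi1 and Cbln4 were at 86.9, 82.5 and 90.9 and at 48.8, 45.2 and 47.5 CPM, against 0 to 21.3 (median 10.01) and 0 to 30.5 (median 8.39). IF was the highest of all libraries in these 4 genes. In the other 3 a second pool was near: Negr1, an immunoglobulin adhesion molecule, was at 682 ± 48.5 in IF and 601 ± 119.5 in PL; Cdh12, a type II cadherin, was at 340.1 ± 39.8 in IF, 259 ± 94.9 in PL and 250.1 ± 97.7 in GS; Unc5d, a netrin receptor, was at 211 ± 34.4 in IF and 189 ± 94.98 in PL. TA was the lowest pool for all 3, at means of 91.8, 38.5 and 6.61 CPM.

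Of the lower genes, Lrrc4c, the netrin G1 ligand, was at 92.4, 98.5 and 96.5 CPM against 203 to 698 (median 407) (log2 fold change -2.002 ± 0.31, adjusted p = 0.00203). Slitrk1, a leucine-rich repeat organizer of synapses, was at 278, 235 and 279 against 575 to 2167 (median 896) (log2 fold change -1.99 ± 0.32, adjusted p = 0.00385). Cadm1, an immunoglobulin adhesion molecule of synapses, was at 8.96, 6.998 and 10.99 against 29.6 to 215 (median 63.2) (log2 fold change -3.02 ± 0.57, adjusted p = 0.0127), and Igsf9b, of inhibitory synapses, was at 126, 124 and 100 against 138 to 526 (median 289.9) (log2 fold change -1.40 ± 0.32, adjusted p = 0.0413). These 4 lay below every other library. Cd47, an integrin-associated surface protein, was at 254, 222 and 221 against 365 to 944 (median 620.0) (log2 fold change -1.41 ± 0.23, adjusted p = 0.00385); a second deposited model of the gene was not called. Alcam and the semaphorin receptor Plxna2 had IF and GS low together: Alcam was at 135 ± 21.7 in IF and 147 ± 25.8 in GS, with means from 665 to 1028 in the others, and Plxna2 was at 42.97 ± 5.48 in IF and 80.9 ± 50.7 in GS, with means from 213 to 840.2. Among the lists, 41 immunoglobulin and related adhesion genes had 1 higher and 2 lower calls and 31 members below the other pools, 25 cadherins had 1 higher call and 18 below, 17 ephrins and Eph receptors had 1 higher call, and 29 semaphorins, plexins and neuropilins had 1 lower. With 1 library removed, calls were lost for Negr1, Cdh12, Unc5d and Cadm1 without any 1 IF library and Cd24a and Cd47 without IF 2 or IF 3. Slitrk1 lost its call without IF 2, and Cbln4 without any 1 EDL, GS or IF library, TA 1 or TA 3. Epha3 lost its call without any 1 IF library or EDL 2, and Lgi1 without any 1 IF library, TA 1, TA 3, EDL 2, EDL 3 or GS 3. Igsf9b lost its call without any 1 TA, GS or IF library, EDL 2 or EDL 3; adjusted p was at most 0.362. None of the 14 was lost without PL 2 and PL 3 or by DESeq2, while limma voom kept 7 of the 7 higher and 5 of the 7 lower.

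Among matrix and secreted proteins, 9 called genes were higher and 4 lower. Of the 33 extracellular matrix genes tested, none was called higher and 2 were called lower (Tnr and Sparcl1), 12 lay above the other pools and 21 below, and the median log2 fold change was -0.61. Its summed level was 2326 to 2458 CPM in IF, below all 12 others at 3252 to 6570. Col8a1, a short-chain collagen, was at 113, 202 and 149.6 CPM against 0 to 50.9 (median 0.602), where EDL reached 50.9 in 1 library and PL had no read (adjusted p = 5.89e-05). Col6a3, a chain of collagen VI, was at 81.9, 66.4 and 120.1 against 0 to 10.9 (median 0.255) (log2 fold change 5.30 ± 1.23, adjusted p = 0.0414). Thsd7a, a thrombospondin-domain membrane protein, was at 258, 285 and 255 against 8.82 to 278 (median 43.99) (log2 fold change 2.44 ± 0.40, adjusted p = 0.00387), and 1 PL library reached into the IF range. Serpinf1, the secreted factor PEDF, was at 93.2, 85.2 and 78.99 against 0 to 32.7 (median 7.64) (log2 fold change 3.96 ± 0.72, adjusted p = 0.00911), and Serpini1, neuroserpin, was at 305, 354 and 355 and overlapped with 61.9 to 374 (median 168) (log2 fold change 1.13 ± 0.27, adjusted p = 0.0449). Coch, Fmod, Adam33 and Glt25d2 were at lower levels, with IF means of 28.2, 6.59, 5.54 and 8.69 CPM. Of 4 fibroblast and meningeal markers tested none was called, and 2 lay above the other pools and 2 below. The list summed to 30.6 to 54.0 CPM in IF and to 6.70 to 251 (median 81.0) in the 12 others. The part of fibroblast RNA in the higher matrix calls was not tested. Lower were Tnr, Spock2, Sparcl1 and Nell1. Tnr, tenascin R of the perineuronal matrix, was at 42.2, 35.9 and 27.3 against 37.6 to 309.8 (median 141) (log2 fold change -1.83 ± 0.40, adjusted p = 0.0299), overlapping with GS at 51.5 ± 22.6. Spock2, a proteoglycan, and Sparcl1, a matrix protein that astrocytes release, were at 743, 524 and 586 and 864, 929 and 894, against 941 to 2269 (median 1252) and 1149 to 2009 (median 1549.6). Nell1 was at 46.1, 68.98 and 51.9 against 97.97 to 418 (median 201) (log2 fold change -1.91 ± 0.37, adjusted p = 0.0144). Leaving out a library ended calls for Serpinf1, Coch and Nell1 without any 1 IF library and Spock2 without any 1 EDL or IF library, TA 1, GS 1 or GS 2. Adam33 lost its call without any 1 EDL or IF library, TA 1, TA 3 or GS 1, and Col6a3 without any 1 EDL or IF library, TA 1, TA 3, GS 2 or GS 3. Glt25d2 lost its call without any 1 GS or IF library, TA 1, TA 3, EDL 1, EDL 2, PL 2 or PL 3, and Serpini1 without any 1 GS or IF library, TA 2, TA 3, EDL 2 or EDL 3. Tnr lost its call without any 1 IF library, TA 2, EDL 2, EDL 3 or GS 2, and Sparcl1 without any 1 TA, EDL or IF library, GS 2 or GS 3. Fmod lost its call without any 1 TA, GS or IF library, EDL 2, EDL 3 or PL 2; adjusted p was at most 0.320. Calls of Col6a3, Fmod, Adam33 and Glt25d2 (adjusted p from 0.0780 to 0.143) were lost without PL 2 and PL 3.

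The called genes held 10 enzymes of metabolism and glycan assembly, 8 higher and 2 lower, among 101 higher and 57 lower calls in all. Bche, butyrylcholinesterase, which splits choline esters, was at 58.96, 114 and 79.6 CPM against 0 to 32.8 (median 6.05) (log2 fold change 4.15 ± 0.72, adjusted p = 0.00687), and with Chrna3 it made up the 2 calls among 11 acetylcholine genes. Ddah1, which breaks down an inhibitor of nitric oxide synthesis, was at 932, 1062 and 944 against 232 to 605 (median 415) (log2 fold change 1.28 ± 0.23, adjusted p = 0.00739), and Man1a, a mannosidase of glycan trimming, was at 135, 183 and 155 against 4.402 to 78.7 (median 43.1) (log2 fold change 2.19 ± 0.40, adjusted p = 0.00933). In all 3 the IF libraries stood above the 12 others. St8sia6, a sialyltransferase, was at 129, 224 and 209.8 against 0.441 to 54.6 (median 27.7) (log2 fold change 2.97 ± 0.69, adjusted p = 0.0414), and Gcnt2, which makes branched glycans, was at 106, 119 and 147 against 0 to 77.6 (median 2.86) (log2 fold change 4.08 ± 0.94, adjusted p = 0.0399). Gda, guanine deaminase, Chst9, a sulfotransferase, and Gnmt, a methyltransferase, had IF means of 27.7, 3.23 and 3.86 CPM. Lower were Acly, which supplies acetyl-CoA from citrate, at 834, 717 and 760.1 against 1056 to 2638 (median 1754) (log2 fold change -1.26 ± 0.24, adjusted p = 0.0116), and Ckb, brain creatine kinase, at 265, 239 and 203 against 296 to 915 (median 611) (log2 fold change -1.38 ± 0.31, adjusted p = 0.0347). A single library left out ended the calls of Bche and Ddah1 without IF 2 or IF 3 and Man1a and Acly without any 1 IF library. Ckb lost its call without any 1 EDL, GS or IF library, TA 1 or TA 2, and Gda without any 1 GS or IF library, EDL 2 or EDL 3. St8sia6 lost its call without any 1 GS or IF library, TA 1, TA 2, EDL 2, EDL 3 or PL 2, and Gcnt2 without any 1 IF library, TA 2, TA 3, EDL 2, EDL 3, GS 1 or GS 2. Chst9 lost its call without any 1 TA, EDL or IF library, PL 2, GS 1 or GS 2, and Gnmt without any 1 TA, EDL, GS or IF library, PL 2 or PL 3; adjusted p was at most 0.312. The calls of Gda, Chst9 and Gnmt (adjusted p from 0.0885 to 0.190) were lost without PL 2 and PL 3.

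Another 5 genes called higher, grouped after the calls and with no list behind them, were Reg3b, Oasl2, Igtp, Iigp1 and Ly6a. Reg3b, a secreted lectin of tissue injury, was at 75.6, 116 and 61.8 CPM with no read in the 12 others, and its neighbour Reg3a had 48 reads in IF and none elsewhere but was too low to be tested. Oasl2, Igtp and Iigp1, which interferons induce, were at 13.4, 10.1 and 12.01, at 3.56, 5.998 and 3.33 and at 5.702, 1.75 and 2.31 CPM. TA and PL had no read of any of these 3, and the few reads of the other pools were nearly all in EDL, at 31, 85 and 11; Igtp overlapped with EDL. Ly6a, a surface antigen that interferons also raise, was at 29.6, 56.7 and 56.1 in IF and at 158 ± 122 in EDL, where every library exceeded every IF library, against at most 5.04 in mean in TA, PL and GS. Of 24 genes of axon injury and regeneration tested, Reg3b alone was called, and the median of the list was 0.02, as over all genes. Calls were lost without a single library for Ly6a without IF 2 or IF 3 and Igtp without any 1 EDL or IF library, GS 2 or GS 3. Oasl2 lost its call without any 1 IF library, and Iigp1 without any 1 TA, EDL, GS or IF library or PL 2; adjusted p was at most 0.202. Without PL 2 and PL 3, Igtp and Iigp1 (adjusted p from 0.0700 to 0.146) lost theirs. DESeq2 did not call Reg3b, Igtp and Iigp1 (adjusted p = 0.0769, 0.0631 and 0.483). Other groups lost calls by another test too. DESeq2 kept 3 of 5 higher peptide and granin genes, 5 of 9 higher matrix genes, 6 of 8 higher enzymes and 2 of 5 contractile genes. Of all 158 calls DESeq2 kept 124 and limma voom kept 137.

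Some genes of contractile proteins were called higher at low levels. Myh2 and Myh13, myosin heavy chains of skeletal muscle, were at 8.66, 7.87 and 6.94 and at 1.53, 1.999 and 4.34 CPM, with 33 and 6 reads in the 12 others. Myl9 and Tpm2, a light chain and a tropomyosin, were at 3.796 ± 0.803 and 2.78 ± 1.81, and Myo5b, an unconventional myosin of vesicle transport, was at 36.4, 12.9 and 15.3 against 0 to 5.45 (median 0). Markers of skeletal muscle fixed as a separate list summed to 16.6, 15.7 and 10.1 CPM in IF and to between 0 and 19.8 (median 2.72) in the others. Of the list's 8 members 1, Myh8, was tested and was not called (adjusted p = 0.337). Acta1, skeletal muscle actin, was too low to be tested, with 57 reads in IF and 3 in the 12 others, and Ckm, muscle creatine kinase, had 6 and 4. The part of RNA from muscle in these calls was not tested. With 1 library left out, calls were lost for Myh2 and Myo5b without any 1 IF library and Myl9 without any 1 TA, EDL or IF library, PL 2, PL 3, GS 2 or GS 3. Myh13 lost its call without any 1 TA, EDL, PL or IF library, GS 1 or GS 3, and Tpm2 without any 1 library; adjusted p was at most 0.349. Those of Myh2, Myh13, Myl9 and Tpm2 (adjusted p from 0.0529 to 0.215) were lost without PL 2 and PL 3.

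Among genes of synaptic vesicles and the cytoskeleton, 1 was higher and 4 lower. Fign, the microtubule-severing protein fidgetin, was at 393, 357 and 351 CPM in IF, with PL at 257 ± 181 and EDL at 167 ± 50.02 and with TA and GS near 9.81 and 8.81 (log2 fold change 3.06 ± 0.62, adjusted p = 0.0188). Sv2c, a synaptic vesicle protein, was at 381, 248 and 363 against 476 to 1239.7 (median 719) (log2 fold change -1.18 ± 0.25, adjusted p = 0.0249), the 1 call among 33 synaptic vesicle genes, of which 25 lay below the other pools. Mapre3, which binds growing microtubule ends, Tns1, a tensin of focal adhesions, and Arhgap36 were lower, with log2 fold changes of -1.97 ± 0.44, -1.59 ± 0.35 and -1.22 ± 0.19. These 4 lower genes lay below all other libraries. When a library was left out, calls were lost for Arhgap36 without IF 3 and Mapre3 without any 1 EDL or IF library, TA 1 or TA 3. Fign lost its call without any 1 IF library, and Sv2c without any 1 IF library or EDL 2. Tns1 lost its call without any 1 IF library, EDL 2, EDL 3 or GS 2; adjusted p was at most 0.299.

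The groups above leave out 36 called symbols, Crabp2 and Aldh1a2 among them, and 10 of these are entries with clone, model or pseudogene names. Lxn, latexin, an inhibitor of carboxypeptidases, was at 284, 329 and 311 CPM against 6.61 to 247 (median 29.4) (log2 fold change 3.21 ± 0.30, adjusted p = 9.33e-06), above every other library; it overlaps Gfm1 on the opposite strand, whose reads cannot be separated without strand. Fam70a, of unsettled function, was at 496, 455 and 407 against 848 to 1877 (median 1288) (log2 fold change -1.52 ± 0.24, adjusted p = 0.00348). Sorcs1, a sorting receptor, and Npr3, the clearance receptor of natriuretic peptides, were at 30.1, 17.7 and 16.9 and at 12.1, 24.1 and 13.7, against 38.9 to 213 (median 117) and 30.3 to 308 (median 113). IF was the lowest in these 3. Iqsec3, an exchange factor at inhibitory synapses, and Vstm2a were lower too, with log2 fold changes of -1.74 ± 0.40 and -1.57 ± 0.33. Art4, Thsd7b and Dll3 were higher from low levels, with IF means of 5.92, 15.1 and 4.51 CPM. Eef1a1, a translation elongation factor, was at 344, 439.7 and 397 against 90.7 to 250.4 (median 164) (log2 fold change 1.35 ± 0.27, adjusted p = 0.0173), and its value is uncertain because the genome holds many processed copies. Leaving out a library ended the calls of Art4, Thsd7b and Eef1a1 without any 1 IF library and Sorcs1 and Vstm2a without any 1 IF library or EDL 2. Fam70a lost its call without IF 3, and Npr3 without any 1 TA, EDL or IF library, GS 1 or GS 3. Iqsec3 lost its call without any 1 TA, EDL or IF library, GS 2 or GS 3, and Dll3 without any 1 TA, EDL, GS or IF library, PL 2 or PL 3; adjusted p was at most 0.385. The call of Dll3 (adjusted p = 0.163) was lost without PL 2 and PL 3.

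Glia lie close to motor neurons and can enter a captured area. All 17 oligodendrocyte markers tested lay below the other pools, with a median log2 fold change of -1.68 beside 0.02 over all genes, and 2 were called lower. Mbp, myelin basic protein, was at 91.3, 56.1 and 58.7 CPM against 143 to 617 (median 244) (log2 fold change -2.003 ± 0.43, adjusted p = 0.0257). The summed level of these markers was 256, 240.5 and 240.7 CPM in IF and 312 to 2524 in the others, with GS 2 lowest and PL 2 highest. With upper-quartile scaling 1 was called, and without PL 2 and PL 3 15 of 17 lay below and 1 was called. Astrocyte markers summed to 2100 to 2400 CPM in IF and 2347 to 4264 in the others, where GS 2 lay below IF 3, and 11 of 13 lay below, with Slc1a2 called; with upper-quartile scaling 8 of 13 lay below and none was called. The lower calls Kcnj10, Slc1a2 and Sparcl1 are also genes that astrocytes express. The part of glial RNA in the lower calls was not tested. With a library left out, the call was lost for Mbp without any 1 IF library or EDL 3, and adjusted p was at most 0.244. Of the 2 called oligodendrocyte markers limma voom kept 0.

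**Figure D5:**
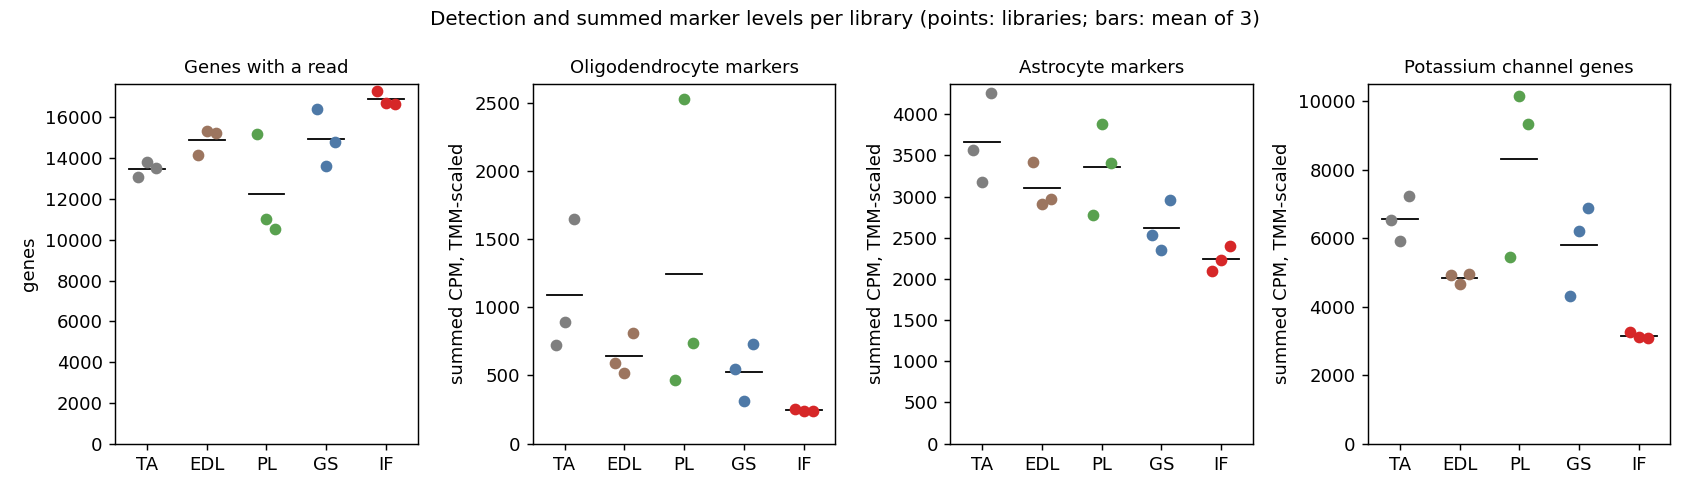
Genes with at least 1 read, and the summed CPM of oligodendrocyte markers, astrocyte markers and potassium channel genes in each of the 15 libraries; points are libraries and bars the mean of 3. The 3 IF libraries have the most detected genes and the lowest sums of oligodendrocyte markers and potassium channel genes, and PL 2 and PL 3 have the fewest genes and the highest sums of potassium channels.

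Other lists held few or no calls. Of 16 markers of gamma and alpha motor neurons, Calca was the 1 called. Of the 16, 12 lay below the other pools and 4 above, with a median log2 fold change of -0.43. Their summed level was 2244 to 2486 CPM in IF, below the 12 others at 2842 to 5531. Esrrg, of gamma neurons, was at 242, 328 and 333 CPM against 157 to 670.4 (median 340.3) (adjusted p = 0.924). Rbfox3, of alpha neurons, was at 168, 108 and 140.5, below the 12 others at 176 to 654 (median 249), without passing (adjusted p = 0.250). None of 45 cytosolic ribosomal protein genes was called, although 36 had a fold change above 0 and the median was 0.50; their summed CPM was 1815 to 2160 in IF and 1160 to 1830 elsewhere. Rps4x had the smallest p of them, at 29.1 ± 3.96 CPM in IF against 1.92 to 8.57 (median 5.69) (adjusted p = 0.0872). None of 56 oxidative phosphorylation genes, of 23 motor neuron disease genes and of 20 heparan sulfate enzymes was called, with medians of 0.04, -0.10 and 0.03. Hs6st2, a heparan sulfate sulfotransferase, lay above all 12 other libraries at 120.2, 109.7 and 129 against 24.3 to 72.6 (median 45.2) without passing (adjusted p = 0.102).

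Over all called genes, 27 of 157 symbols kept their call when each of the 15 libraries was left out in turn and also without PL 2 and PL 3, 17 higher and 10 lower. Those with gene names among the higher were Crabp2, Cpne4, Vip, Pou3f1, Isl1, Bnc2, Tac1, Lxn, Col8a1, Lifr, Osmr, Pirt, Chrna3, Trpc4, Thsd7a and Reg3b, and the lower were Aldh1a2, Nts, Calca, Hoxc10, Sox6, Plxna2, Alcam, Lrrc4c, Cacng5 and Rasgrf1. They cover retinoid metabolism, transcription factors, peptides, cytokine receptors, channels and adhesion, and the count of calls fell to 37, 32 and 31 without IF 1, IF 2 and IF 3. It was 89 without EDL 2, 94 without EDL 3, 105 without GS 2 and 333 without PL 1.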

How the data were processed

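RNA of laser-captured motor neurons of 5 pools, 3 libraries each, was made into cDNA with Ovation V2 and into libraries with Nextera and read from 1 end, per the labels' protocols. Nextera does not keep strand. Besides the overlaps given in the text, opposite-strand neighbours that were themselves tested share bases with Cabp7, Fam70a, Fgf1, Gcnt2, Glra1, Gnmt, Nfia, Scn9a, Slc1a2, Slc7a14 and Thsd7b. Opposite-strand models that were not tested overlap further called genes, among them Pirt, Sox6, Lrrc4c, Igf1 and Mbp. The values used are raw counts of reads by gene, as the authors deposited them; per the submitters' processing notes reads were aligned with Bowtie 0.12.9 to mm9. How reads were assigned to genes is not given in the sources used here. Also deposited were 15 RPKM columns, which were not used, and the authors' pairwise lists, not used either. Total counts ran from 4417114 to 8488368, and replicates differed by more than counting noise (chi-square at least 11.4 times its degrees of freedom). Of 36814 genes, 4 with 16 counts below 0, for which no reason is given, were dropped.

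The filterByExpr rule left 14340 genes, which edgeR 4.0.16 (R 4.3.3) fitted with TMM scaling and 1 coefficient per pool; a standard error is the fitted log2 difference divided by the root of its F. P-values are Benjamini-Hochberg adjusted over these genes, with a threshold of 0.05. Pou3f1 has 2 entries with the same counts, so 158 calls are 157 symbols. Alternatives were DESeq2 1.42.0, limma voom 3.58.1, other scalings, filters and references, a replicate block, and libraries left out.

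Members and lists were chosen with earlier results of these data known, and the roles were assigned after the calls. Any called gene could be named, clone, model and pseudogene names being only counted; called list members and a fixed set of identity genes were added. Coordinates are those of the deposited table, whose ends lie 1 past the last base for most genes. Promoter sequences are those of RefSeq on GRCm38.p6. Some called genes are not reported here by name.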

Additional observations from a re-analysis of the deposited data

How the results depend on the processing

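The number of called genes (158; 101 higher, 57 lower) was 159 with DESeq2's size factors and 163 with upper-quartile scaling, which moved the median of all genes by 0.21. It was 514 (353 and 161) with no filter on low counts, 110 with a stricter one (58 higher), 249 by DESeq2 (155 lower), 278 by limma voom (236 higher), 25 (13 and 12) with the 12 other libraries as 1 group, and 156 without PL 2 and PL 3. Leaving out 1 library gave 31 to 333 calls, 19 to 207 higher and 12 to 126 lower, and 7 libraries (EDL 2, EDL 3, PL 1, GS 2 and each of IF) moved the count by over 1.5 times. An unadjusted p under 0.05 was found for 1345 genes.

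Same-numbered libraries did not deviate together: their correlations ran from -0.07 to 0.13, and 6 of 15 libraries were closest to their own number. Whether the numbers pair the samples is not stated, and a check on 3 libraries per pool cannot decide it. The fit with the replicate number as a block called 96 genes (59 higher, 37 lower).

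Direction turned for Kcng1 (-0.033, with the 12 others as 1 group) and for Hoxc11, which was at 1.94 with all libraries, at -0.55 without IF 2 and at 3.13 without PL 1; the cause was not tested. Both genes have a pool with no read, so these fitted values depend on the added count and are no measure of size. Total counts of 4417114 to 8488368 leave genes with under about 3 reads per pool without a usable fold.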
